A study of Zea mays with 38 samples.

Results

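The maize genes examined here encode tubulins, the subunits of microtubules, and profilins, small proteins that bind actin monomers. Array features were taken as members when the symbol or a synonym of their gene began with tua, tub or prf followed by a digit, which gave 34 features of 14 genes out of 20014 features tested. Of these, 23 features of 10 genes were tubulins and 11 features of 4 genes were profilins. The tubulins comprised 16 alpha-tubulin features (3 of tua1, 2 of tua3, 4 of tua4, 6 of tua5 and 1 of tua6) and 7 beta-tubulin features (1 of tub3, 1 of tub4, 2 of the gene listed as both tub5 and tub8, 1 of tub6 and 2 of tub7). The profilins comprised 4 features of prf1, 3 of prf2, 1 of prf3 and 3 of prf5. The 4 tua4 features matched by the platform's own symbol, and the other 30 matched by a synonym that the RefSeq gene table gives for the same gene ID.

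Leaves of seedlings of the inbred line B73 were irradiated with UV-B for 1, 2, 4, 8 or 12 h, and unirradiated leaves were sampled at each of these times, so that 10 groups (UV and control at 5 times) of about 20 plants each were formed. Total RNA of 1 UV and 1 control sample was labelled with Cy3 and Cy5 and hybridised together on a spotted cDNA slide. The analysis used 19 slides and 38 samples: slides a, b, c and d of each time, with UV in Cy5 on a and b and in Cy3 on c and d, except that slide b of 2 h was not analysed here. Separate plants or extracts behind the replicate slides are not stated in the labels, nor are plant age and UV-B dose, so p-values measure only the spread between slides, which may be technical.

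Alpha- and beta-tubulin pair into the dimers from which microtubules are built, and in leaf cells cortical microtubules guide the deposition of cellulose while spindle and phragmoplast microtubules serve division. Profilin holds a pool of actin monomers and, with other actin-binding proteins, governs how filaments grow. Plants carry both proteins as gene families, and in maize prf1, prf2 and prf3 were first described from pollen. A cDNA spot can bind transcripts of closely related family members, so a value belongs to the spot and is only by its annotation that of the named gene.

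Between 18795 and 20158 spots were measured per channel, and channel medians ran from 138059 to 626914 in intensity. Across all features, slides of opposite dye orientation correlated at a median r of -0.244 at 1 h, -0.285 at 2 h and -0.273 at 4 h, and at 0.198 at 8 h and 0.132 at 12 h. Of 15 leaf marker features, 13 lay above the brightest of 7 transgene or foreign spots (mean log2 intensity 16.76), which was used as a mark of unspecific signal. Of the 13, 1 matched by name only, as pdlk1, a pyruvate dehydrogenase kinase, and without it the count was 12 of 14. Above the mark were also 9 of 12 endosperm and embryo features, 1 of 3 root and meristem features and the 1 feature matched to the pollen list, listed as PLC. Of the 34 members, 30 lay above that mark. So did 72.5% of all features tested, a share that also stands beside the counts of the marker lists. The dim members were tub7 BQ034951, prf1 AW497879, prf3 AW506872 and prf5 BQ401186. Brightness serves here only to choose or mark spots, because it also depends on a spot's own DNA.

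Averaged over the 5 times, UV-B left most tubulin and profilin features close to the control level. In this mean, 1 alpha-tubulin feature rose, 1 beta-tubulin feature fell, and no profilin feature passed the test (limma, Benjamini-Hochberg adjusted over all features, threshold 0.05). These 2 of 34 members are 5.88%, beside 14.4% of all features tested (8.72% higher and 5.68% lower in UV). The median log2(UV/control) of the members was -0.02, beside -0.02 over all features, and their median size without sign was 0.09, beside 0.10. For 32 of 34 features the 95% interval of this mean lay within a 1.5-fold change in either direction. The exceptions were prf1 BQ485600, whose interval ran from -0.65 to 0.65, and prf1 BQ577791, whose interval ran from -0.75 to -0.0089. Intervals at single times were wider, and at 8 h that of tub7 BQ294325 ran from 0.30 to 1.47. In leaf RNA, a changed share of cells of a type and a changed amount of transcript per cell cannot be told apart.

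**Figure D1:**
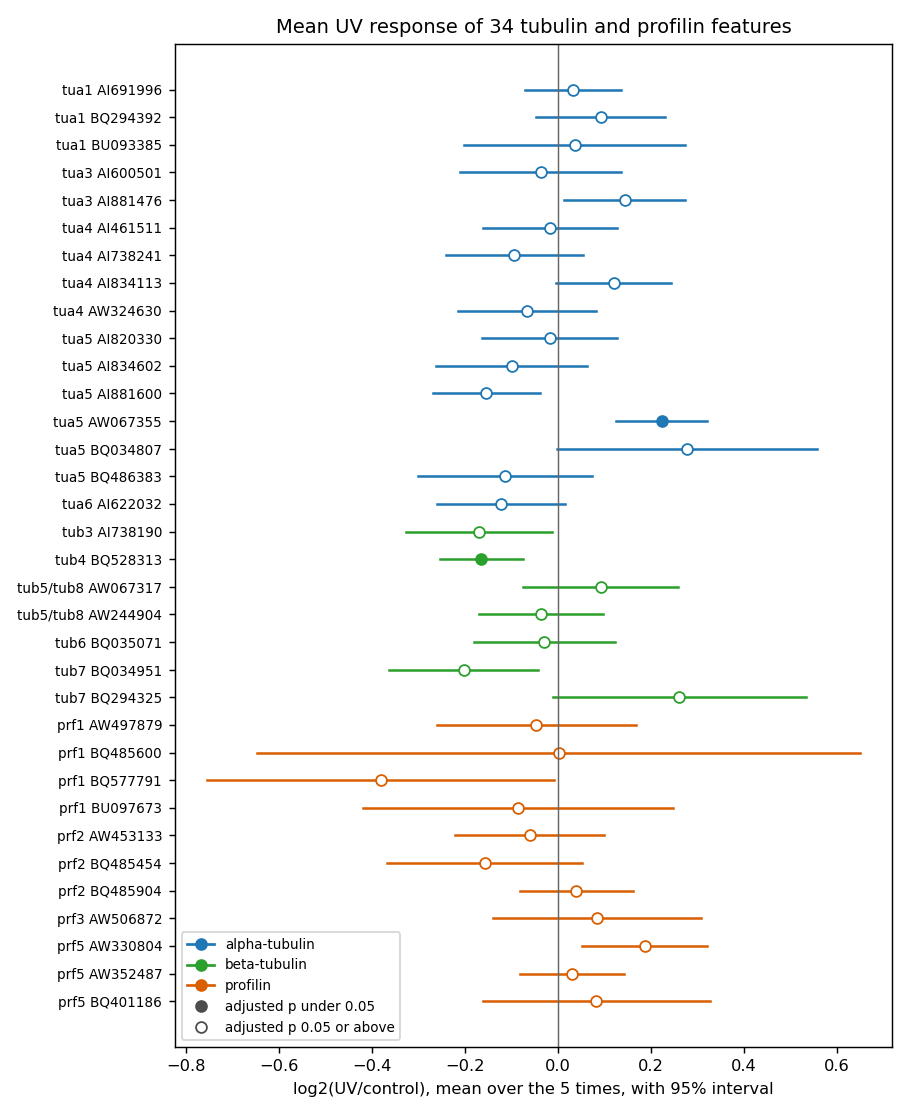
Mean log2(UV/control) over the 5 times (x axis, log2 scale) of the 34 member features (y axis), with 95% intervals from the limma fit and colours for alpha-tubulins, beta-tubulins and profilins. Filled points mark an adjusted p under 0.05, which holds for tua5 AW067355 at 0.22 and tub4 BQ528313 at -0.17, and prf1 has the widest intervals.

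The alpha-tubulin feature that rose was tua5 AW067355. On log2(UV/control) its slides a, b, c and d read 0.37, 0.51, -0.10 and 0.04 at 1 h. Slides a, c and d read 0.51, 0.13 and 0.33 at 2 h, and slides a to d read -0.20, 0.04, 0.20 and -0.24 at 4 h. At 8 h slides a, c and d gave 0.45, 0.18 and 0.35, and at 12 h slides a to d gave 0.29, 0.33, 0.16 and 0.19. UV was thus above control on every measured slide of 2, 8 and 12 h, while the slides of 4 h lay on both sides of 0. The mean was 0.22 ± 0.0459 (SE, 18 slides, adjusted p = 0.00471, limma), a 1.17-fold rise seen on 15 of 18 slides. Slides with UV in Cy5 averaged 0.29 and those with UV in Cy3 averaged 0.13. With the 8 h slides left out, an alternative added after seeing the data, the mean was 0.19 (adjusted p = 0.064). At single times its adjusted p was 0.0838 at 2 h (0.36 ± 0.112) and 0.0633 at 8 h (0.36 ± 0.112), so no time passed by itself.

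The other 5 features of tua5 did not pass, and they did not share a sign. Their means were -0.02 for AI820330, -0.10 for AI834602, -0.15 for AI881600, 0.28 for BQ034807 and -0.11 for BQ486383. AI881600 was the nearest to the threshold, with UV below control on 15 of 19 slides (-0.15 ± 0.0539, adjusted p = 0.0682, limma). BQ034807 has the largest mean of the 6 features, but at 2 h its slides a, c and d read -0.20, 2.83 and 0.48, so a single slide carried most of that value, and its adjusted p over all times was 0.179. At 12 h the 4 slides of BQ486383 read -1.08, -0.29, -0.64 and -0.06, all below 0 (-0.52 ± 0.190, adjusted p = 0.152, limma). The gene symbol tua5 therefore covers spots with means on both sides of 0.

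Of the remaining alpha-tubulin features none passed. The 3 features of tua1, AI691996, BQ294392 and BU093385, had means of 0.03, 0.09 and 0.04. RefSeq places tua1 next to tua2, with 0 genes between them and a shared older locus name, so the split of signal between these neighbours is uncertain. For tua3, AI881476 was higher in UV on 14 of 17 slides with a mean of 0.14 ± 0.0603 (adjusted p = 0.134, limma), while AI600501 had a mean of -0.04 and read 0.29 on Cy5 slides and -0.35 on Cy3 slides. The 4 features of tua4 had means of -0.02 for AI461511, -0.09 for AI738241, 0.12 for AI834113 and -0.07 for AW324630, and tua6 AI622032 had a mean of -0.12 with UV lower on 15 of 19 slides (adjusted p = 0.233).

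The beta-tubulin feature that fell was tub4 BQ528313. Its slides a to d read -0.09, -0.16, -0.17 and 0.06 at 1 h. Slides a, c and d read -0.09, -0.10 and -0.24 at 2 h, and slides a to d read 0.18, -0.17, -0.26 and 0.11 at 4 h. At 8 h slides a to d read -0.28, -0.14, -0.25 and -0.27, and at 12 h they read -0.57, -0.36, -0.22 and -0.11. UV lay below control on all slides of 2, 8 and 12 h and on both sides at 1 and 4 h. The mean was -0.17 ± 0.042 (SE, 19 slides, adjusted p = 0.0154, limma), a 1.12-fold fall seen on 16 of 19 slides. Both dye orientations gave close values, -0.19 on Cy5 slides and -0.15 on Cy3 slides. With the 8 h slides left out the mean was -0.15 (adjusted p = 0.131), and with each slide centred on its median in place of loess it was -0.11 (adjusted p = 0.181). At 12 h alone the value was -0.31 ± 0.0907 (adjusted p = 0.0657).

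The other beta-tubulins held values on both sides of 0. tub3 AI738190 had a mean of -0.17 with UV lower on 15 of 19 slides, but its slides varied more than those of tub4 and its adjusted p was 0.141. The 2 features of tub5/tub8 had means of 0.09 for AW067317 and -0.04 for AW244904, and tub6 BQ035071 had a mean of -0.03. The 2 features of tub7 pointed in opposite directions. BQ034951, a dim spot, had a mean of -0.20 (adjusted p = 0.0864), while BQ294325 had a mean of 0.26 (adjusted p = 0.194). BQ294325 had its largest value at 8 h, where its 4 slides read 1.67, 0.10, 0.76 and 1.02 (0.89 ± 0.276, adjusted p = 0.0616, limma). All 4 lay above 0, with slide b close to it. The control levels behind these ratios were 15.16, 16.70, 15.86 and 15.33, near or below the mark of unspecific signal. They are levels of 1 channel after normalization between slides. The mark is a mean of both channels before it, so the comparison is rough.

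**Figure D2:**
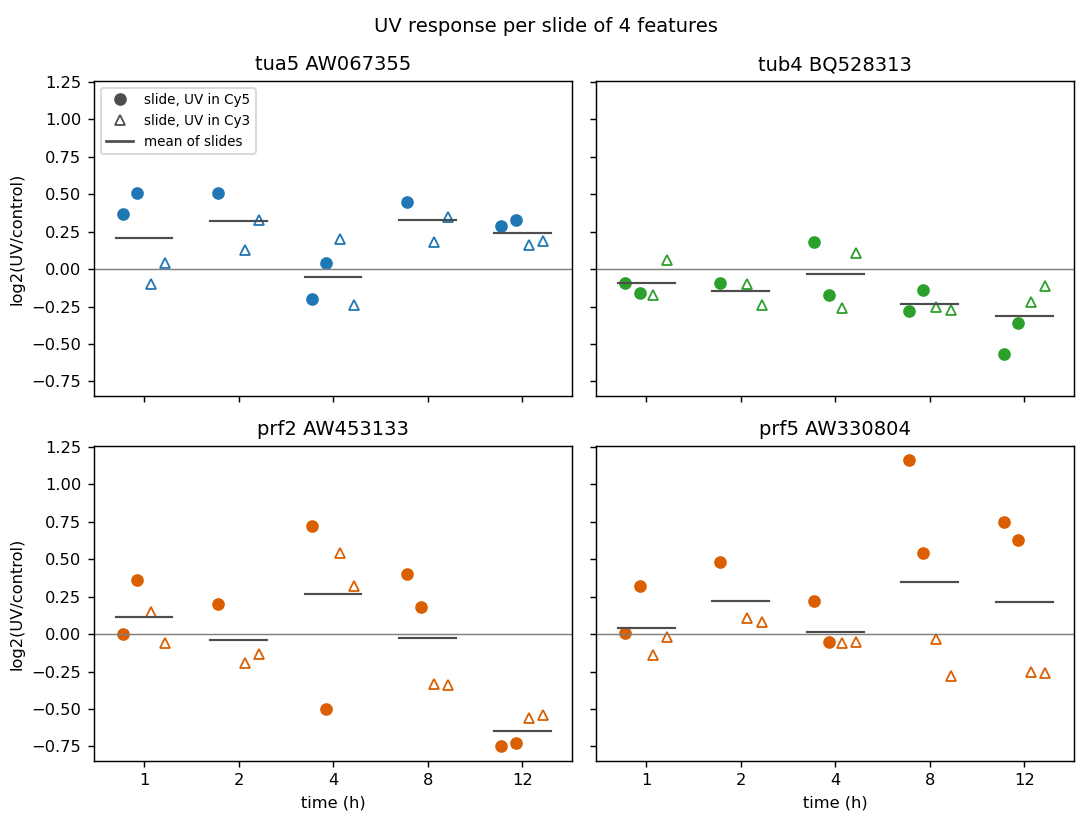
Log2(UV/control) on each slide (y axis, log2 scale) by time in hours (x axis) for tua5 AW067355, tub4 BQ528313, prf2 AW453133 and prf5 AW330804, with filled circles for UV in Cy5, open triangles for UV in Cy3 and bars at the slide means. The 4 slides of prf2 AW453133 at 12 h lie between -0.75 and -0.54, and those of prf5 AW330804 at 8 and 12 h separate by dye.

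Among the profilins the only call was a fall of prf2 AW453133 at 12 h. Its 4 slides read -0.75, -0.73, -0.56 and -0.54, a narrow range wholly below 0 (-0.64 ± 0.163, adjusted p = 0.035, limma). It is 1 of 34 members (2.94%), beside 4.33% of all features called at 12 h (2.01% lower in UV). At 1 h the slides of the same spot read 0.00, 0.36, 0.15 and -0.06. They read 0.20, -0.19 and -0.13 at 2 h (slides a, c and d) and 0.72, -0.50, 0.54 and 0.32 at 4 h. At 8 h they read 0.40, 0.18, -0.33 and -0.34, so before 12 h the slides lay on both sides of 0 at every time. Leaving out any 1 of the 4 slides of 12 h ended the call (values from -0.70 to -0.59, adjusted p up to 0.172). In those fits 0.770% to 1.36% of all features were called at 12 h. With the authors' matrix values the value of AW453133 at 12 h was -0.30 (adjusted p = 0.0265). The other features of prf2 did not show the same value at 12 h. BQ485454 read -0.94, -0.05, -0.76 and 0.12 and BQ485904 read 0.03, 0.47, -0.45 and 0.26. AW453133 is also faint, with a mean log2 intensity of 16.86 against the mark of 16.76.

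prf5 AW330804, the brightest profilin spot, had a mean of 0.19 ± 0.0634 (19 slides, adjusted p = 0.0597, limma), with UV higher on 10 of 19 slides. At 8 h its Cy5 slides a and b read 1.16 and 0.54 and its Cy3 slides c and d read -0.03 and -0.28. At 12 h the Cy5 slides read 0.75 and 0.63 and the Cy3 slides read -0.25 and -0.26. The orientations did not overlap at either time: over all times, the Cy5 slides averaged 0.45 and the Cy3 slides averaged -0.09. The other features of prf5, AW352487 and BQ401186, had means of 0.03 and 0.08.

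The residual SD between slides, after the time means and the dye term, was 1.45 for prf1 BQ485600, 0.77 for BQ577791 and 0.73 for BU097673. All were above the 0.61 of tua5 BQ034807, the largest residual SD among the tubulin features. BQ485600 read -3.17, 4.99 and 0.58 on slides a, c and d of 2 h, and its Cy5 and Cy3 slides averaged -0.99 and 0.94 over all times. BQ577791 read -2.05, -0.47, -2.53 and 0.09 at 1 h (-1.24 ± 0.352, adjusted p = 0.492, limma), and its mean over all times was -0.38 (adjusted p = 0.166). AW497879 and BU097673 had means of -0.05 and -0.09. The single spot of prf3, AW506872, had a mean of 0.08 and read 0.46 on Cy5 slides and -0.26 on Cy3 slides. No direction can be given for prf1 or prf3 from these slides.

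**Figure D3:**
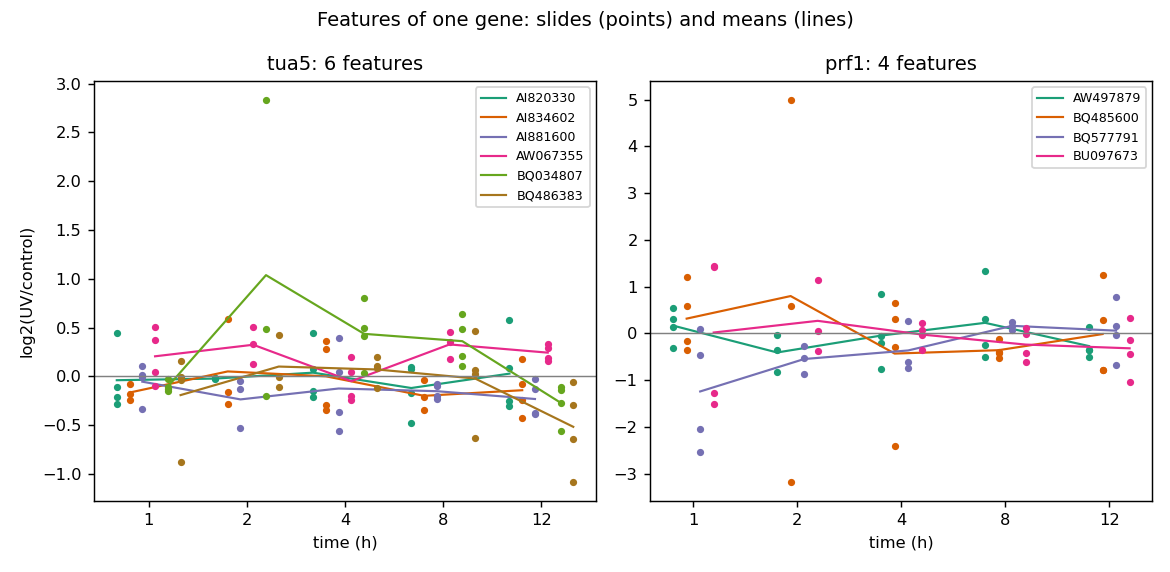
Log2(UV/control) of the 6 tua5 features (left) and the 4 prf1 features (right) by time in hours, with points for slides, lines through the slide means and different y scales. The tua5 features lie on both sides of 0 with a single slide of BQ034807 at 2.83 at 2 h, and prf1 BQ485600 runs from -3.17 to 4.99 at 2 h.

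At single times, no member passed at 1, 2, 4 or 8 h by the limma fit, beside 0% of all features called at 1 h, 4.15% at 2 h, 0% at 4 h and 7.54% at 8 h. At an unadjusted p under 0.05 there were 3 members at 1 h, 2 at 2 h, 0 at 4 h, 6 at 8 h and 5 at 12 h of 34, beside 7.82%, 20.2%, 4.84%, 23.4% and 19.02% of all features. Other settings called up to 1 member at 2 h and up to 4 at 8 h. The difference of the response between times was called for 0 of 34 members by the moderated F-test (1 at an unadjusted p under 0.05, beside 15.2% of all features), beside 0.155% of all features called, and the smallest adjusted p was 0.195, for prf2 AW453133. The median member stood at -0.06 at 1 h, 0.02 at 2 h, 0.00 at 4 h, -0.03 at 8 h and 0.00 at 12 h.

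Dye orientation moved with the sign of many members. For 19 of 34 features the mean over Cy5 slides and the mean over Cy3 slides had opposite signs. For 18 the fitted dye term was larger in size than the mean UV response. The shares over all features are not given here, so neither count is shown to be particular to the members. The dye term reached -0.93 for prf1 BQ485600, -0.50 for tub7 BQ294325, -0.45 for prf1 BU097673 and 0.38 for tua4 AW324630. It was 0.10 for tua5 AW067355 and -0.02 for tub4 BQ528313, both smaller than their mean responses. The fit removes an average dye effect per feature, and its part in the values of single slides was not tested further.

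Tubulins and profilins did not separate. Averaged over features on each slide, the tubulins had a mean of -0.0064 (SD 0.146, 19 slides, from -0.31 to 0.24) and the profilins a mean of -0.03 (SD 0.199, from -0.31 to 0.32), and the tubulin mean was the higher on 11 of 19 slides. The difference, tubulins minus profilins, averaged -0.00026 at 1 h (SD 0.378, n = 4), 0.0029 at 2 h (SD 0.2, n = 3) and 0.07 at 4 h (SD 0.195, n = 4). It averaged -0.04 at 8 h (SD 0.308, n = 4) and 0.10 at 12 h (SD 0.347, n = 4). At every time the difference was smaller than its SD over slides. Its sign depended on how features were averaged: at 1 h it was 0.10 over the bright features alone and -0.09 with 1 value per gene, and at 4 h it was 0.11 and -0.0020.

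**Figure D4:**
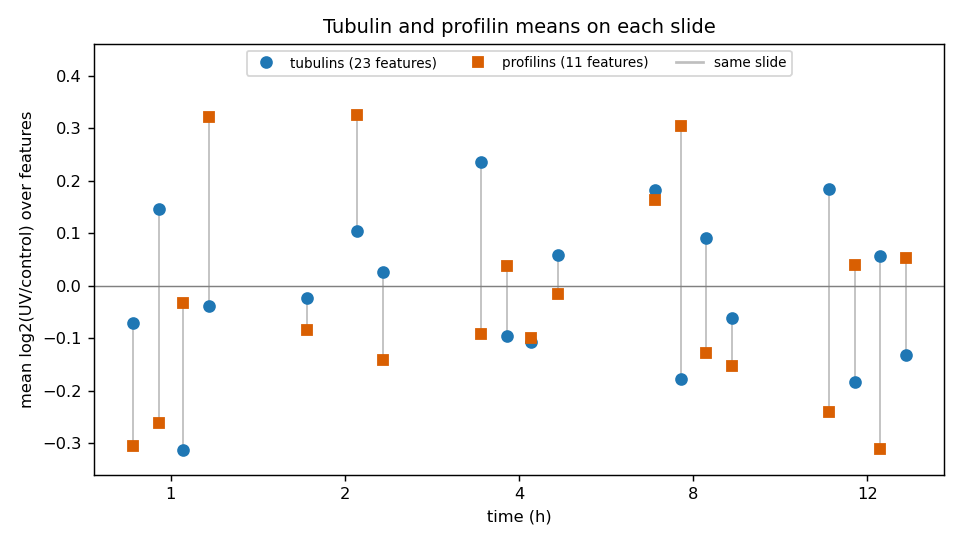
Mean log2(UV/control) over the 23 tubulin features (circles) and the 11 profilin features (squares) on each of the 19 slides (y axis, log2 scale) by time in hours (x axis), with grey lines joining values of a slide. Neither class lies above the other at any time, and the tubulin mean is the higher on 11 of 19 slides.

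The control level was then followed over the 5 times. Control levels are log2 intensities of the control channel after loess and Aquantile normalization. They were compared in a separate-channel limma fit, which needs values on all slides and takes in the UV channels as well. This fit held 23 members (14 tubulin and 9 profilin features) of 14229 features. Each time had its own slides, so differences between times and differences between sets of slides cannot be told apart. Over the 5 times, 4 of 23 members changed (17.4%), beside 13.8% of all features in the fit. They were tua4 AW324630, tua6 AI622032, tub7 BQ294325 and prf5 AW330804. The highest and the lowest time did not overlap in 9 of 23 members (39.1%), beside 33.5% of all features. With the control channel tested alone, without the UV channel of the same spot, 0 of 34 members passed, beside 1.28% of all features.

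prf5 AW330804 had the smallest adjusted p (F = 8.58, adjusted p = 0.00795, limma). Its control level was 21.76, 21.69, 21.61 and 21.87 on slides a to d of 1 h and 21.98, 21.51, 21.70 and 22.16 at 4 h. It was 20.98, 20.54, 20.03 and 19.31 at 8 h, all below the slides of 1, 2 and 4 h. At 12 h it was 19.16, 19.53, 20.04 and 21.79, so slide d alone stood in the earlier range. Against 1 h the level fell by 1.60 on the log2 scale at 12 h (SE 0.412, adjusted p = 0.0251), and the value at 8 h was -1.52 (SE 0.412, adjusted p = 0.0797). Leaving out 1 slide gave -2.12 to -1.34 at 12 h and ended that call in 5 of 19 fits. The other spot of prf5 in the fit, AW352487, did not pass and had time means between 19.62 and 20.06. The brightest reading of AW330804 was 69.7% of the brightest reading of any spot, and whether scanner saturation affected it was not tested. Slides c and d of 8 h and a and b of 12 h had the lowest values, and they have opposite dye orientation. A dye effect that differs between times was not tested.

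**Figure D5:**
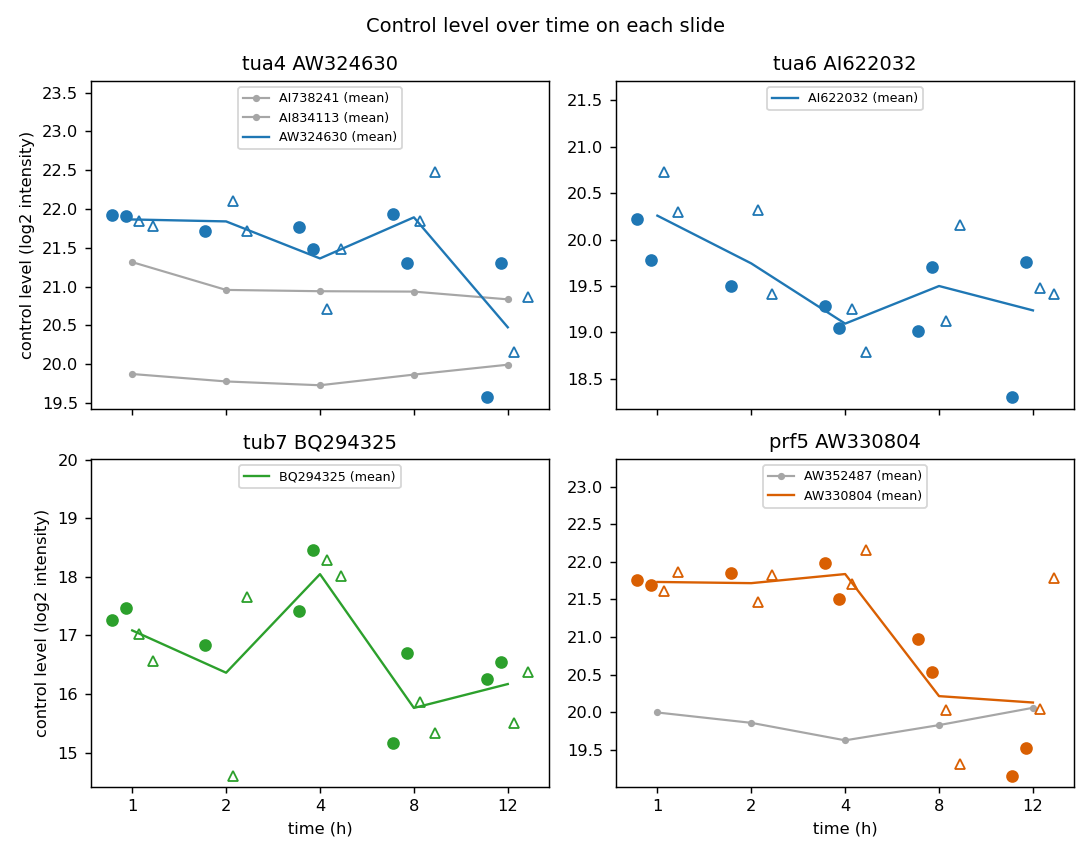
Control level (y axes, log2 intensity, scales differ) on each slide by time in hours (x axis) for tua4 AW324630, tua6 AI622032, tub7 BQ294325 and prf5 AW330804, with filled circles for slides with UV in Cy5, open triangles for UV in Cy3, coloured lines through slide means and grey lines for other features of the gene in the fit. prf5 AW330804 drops from above 21.4 at 1, 2 and 4 h to between 19.31 and 20.98 at 8 h, while its other feature stays near 20.

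Among the alpha-tubulins, tua4 AW324630 read 21.92, 21.91, 21.85 and 21.78 at 1 h and 19.57, 21.31, 20.16 and 20.86 at 12 h. All slides of 12 h lay below those of 1 h, and the level at 12 h fell by 1.39 on the log2 scale (SE 0.389, adjusted p = 0.0372, limma). The other tua4 features in the fit had no such value: AI738241 was at 19.87 at 1 h and 19.99 at 12 h, and AI834113 at 21.32 and 20.84. The call over time for tua4 AW324630 (adjusted p = 0.0415) was lost in 14 of 19 fits that left out 1 slide. tua6 AI622032 read 20.22, 19.78, 20.73 and 20.30 at 1 h and 19.29, 19.05, 19.25 and 18.79 at 4 h, without overlap, and fell by 1.17 at 4 h (SE 0.304, adjusted p = 0.0135). Its call over time (adjusted p = 0.0449) was lost in 12 of 19 such fits. tua1 AI691996 rose by 1.504 at 4 h (SE 0.440, adjusted p = 0.0238), but slide b of 1 h read 14.92 where the other slides of 1 h read 17.90 to 17.98, and without that slide the value was 0.75 (adjusted p = 0.095).

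Among the beta-tubulins, tub7 BQ294325 read 17.42, 18.46, 18.29 and 18.01 at 4 h and 15.16, 16.70, 15.86 and 15.33 at 8 h, which do not overlap (F = 5.38, adjusted p = 0.0276, limma). None of its contrasts against 1 h passed, and with the 4 h slides left out, an alternative added after seeing the data, the adjusted p was 0.40. At 8 h this spot also had its highest UV ratio, and the control channel enters both values. In the controls tub4 BQ528313 had time means between 19.39 and 19.83 and did not pass (adjusted p = 0.199), nor did tub3 and tub6.

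Among the profilins, 2 spots of prf2 rose against 1 h at different times. BQ485454 rose by 1.43 at 4 h (SE 0.468, adjusted p = 0.0396, limma), where its slides read 19.93, 21.05, 22.34 and 21.74 beside 20.18, 20.13, 19.31 and 19.71 at 1 h, and slide a of 4 h lay within the range of 1 h. Leaving out 1 slide gave 1.08 to 1.87 and ended this call in 7 of 19 fits (adjusted p up to 0.179). AW453133 rose by 1.55 at 12 h (SE 0.416, adjusted p = 0.0299), where its slides read 17.84, 17.53, 17.69 and 17.59 beside 16.61, 15.79, 15.52 and 16.54 at 1 h, and this call was lost in 6 of 19 such fits. This is the spot whose UV ratio fell at 12 h, and both results read the same control channel. Its control levels of 1 h lay near or below the mark of unspecific signal, which was taken before normalization between slides, so the comparison is rough. Its F-test over all times did not pass (adjusted p = 0.0754). With the authors' matrix values the rise at 12 h was 0.55 (adjusted p = 0.0729).

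Against 1 h, 0 members were called at 2 h, 3 at 4 h, 0 at 8 h and 3 at 12 h of 23, beside 0.00703%, 13.7%, 0.513% and 4.2% of all features. At an unadjusted p under 0.05 there were 1, 8, 5 and 6 members, beside 10.4%, 30.1%, 12.7% and 18.8% of all features. With the control channel tested alone, these 6 calls at 4 and 12 h had adjusted p from 0.0585 to 0.107. Averaged over features, the profilin level was 0.60 above 1 h at 4 h (SD 0.485 over 4 slides, from -0.09 to 0.95), while the tubulin level stayed between -0.07 and 0.08 of that of 1 h. The profilin average came mostly from the 3 features of prf2 (0.94, 1.43 and 0.97) and from prf1 BQ485600 (1.88, SE 1.11). The other profilin features in the fit ran from -0.38 to 0.55. Within the tubulins, the 4 beta-tubulin features averaged 0.38 above 1 h at 4 h (SD 0.168, from 0.19 to 0.59) and the 10 alpha-tubulin features stood at -0.04 (SD 0.168). The beta-tubulin features differed: tub7 BQ294325 stood at 0.96, tub3 AI738190 at 0.89, tub6 BQ035071 at 0.06 and tub4 BQ528313 at -0.37. For tub3, slide b of 1 h read 14.39 where the others read 18.64 to 19.05, so its value rests largely on that slide. The 4 h slides overlapped those of 1 h for profilins, alpha-tubulins and beta-tubulins. Without normalization between slides, the median of all features moved by 0.58 at 4 h, 0.60 at 8 h and 1.09 at 12 h against 1 h. On that scale the 12 h value was -0.67 for prf5 AW330804, -0.52 for tua4 AW324630 and 0.11 for tua6 AI622032, each below the median of all features. There prf5 and tua4 were no longer called (adjusted p = 0.218 and 0.323, limma). tua6 was not called at 12 h with the normalization either (adjusted p = 0.0509). The value of prf2 AW453133, called higher at 12 h, was 2.49 on that scale.

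Features annotated to the same gene often did not follow each other. Over 39 pairs of features of a gene, the correlation of log2(UV/control) over 16 to 19 slides had a median of 0.04 and ran from -0.61 (tua5 AI820330 with BQ486383) to 0.88 (tua1 AI691996 with BQ294392). Over the 33 pairs with both features above the mark of unspecific signal the median was 0.12. In control level over 19 slides, the 2 complete prf5 features correlated at -0.27, and prf2 BQ485454 with BQ485904 at 0.87. These values are descriptions. The slides share dye orientation and hybridisation, which both spots of a pair see.

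Among 1156 named features that were not members, the log2(UV/control) of tua4 AW324630, the brightest tubulin spot, followed most closely those of orc1 AW042240 (r = 0.92, 18 slides), his2b5 BQ621026 (r = 0.89, 19 slides) and pdlk2 AI974938 (r = 0.87, 19 slides). That of prf5 AW330804 followed those of TCTP AW330972 (r = 0.82, 19 slides), fae2 BU092982 (r = 0.81, 18 slides) and copz2 AW331792 (r = 0.79, 19 slides). tua4 AW324630 read 0.30 on Cy5 slides and -0.44 on Cy3 slides, and the dye orientation is shared by all features of a slide.

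Other genes of the same cytoskeleton were counted from name lists. On the actin side, 0 of 15 features passed in the mean over times, among them features of adf1 and adf2, actin-depolymerising factors, and of rop genes, which encode small GTPases. By their names 3 of the 15 are auxin-binding proteins, and without them the count was 0 of 12. The smallest p belonged to adf2 BE012217 (-0.13 ± 0.0476, adjusted p = 0.0776, limma). On the microtubule side, 0 of 13 features of gamma-tubulin, which nucleates microtubules, and of kinesins, which move along them, passed. The smallest p belonged to kin15 AI677423 (0.12 ± 0.0482, adjusted p = 0.103). At an unadjusted p under 0.05 there was 1 feature on the actin side and there were 2 on the microtubule side, beside 28.4% of all features. Of all features 14.4% were called, 8.72% higher and 5.68% lower. Of 21 cell division features 1 rose, pcna1 AI979497, the sliding clamp of DNA polymerases (0.17 ± 0.0499, adjusted p = 0.0363). The medians of the 3 lists were -0.03, 0.00 and -0.02, beside -0.02 over all features, and at single times 0 features of any of these lists passed (limma). At an unadjusted p under 0.05 a list held 0 to 4 features at a time.

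In the controls over time, 1 of 10 actin-side features, 1 of 6 microtubule-side features and 1 of 15 cell division features changed by the F-test, beside 13.8% of all features. They were rop7 AW191075, KIN9 AW224836 and cenH3 AW244191, the centromeric histone. All 3 were lowest against 1 h at 4 h, when 13.7% of all features were called against 1 h. There rop7 fell by 3.50 (SE 0.879, adjusted p = 0.0119), KIN9 by 1.98 (SE 0.433, adjusted p = 0.00934) and cenH3 by 1.96 on the log2 scale (SE 0.564, adjusted p = 0.0221, limma). At 4 h the 3 lists held 1, 0 and 0 features called higher and 1, 1 and 2 called lower. The 1 called higher was abp1 BQ172573, by its name an auxin-binding protein (1.05, SE 0.277, adjusted p = 0.0143, limma). Without the auxin-binding features, the actin side had 0 of 9 called higher and 1 called lower at 4 h. Its count by the F-test was then 1 of 9. In the same fit KIN9 AI677113 and cenH3 BQ034683 did not pass the F-test over time (adjusted p = 0.531 and 0.112).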

How the data were processed

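Per the labels, scans were gridded with TIGR Spotfinder, and the authors deposited one linear intensity per spot and channel. Background subtraction, scanner and any filter are not given in the sources used here. The value table of the series gives a score per sample that the authors deposited after their own processing, with unknown scale and centring (column medians 12.24 to 12.35, r = 0.749 to 0.828 with log2 intensity). It was used only as an alternative. Of all columns, 0 had no sample.

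In limma 3.58.1 (R 4.3.3), intensities were corrected by normexp (offset 50) and normalised within slides by loess (span 0.3). Of 20231 spot positions, 120 control spots were left out, spots of a feature were averaged, and 20014 features with at least 2 slides at each time were tested. The model held 5 time means and a dye term, with eBayes (13 residual and 2.75 prior degrees of freedom) and Benjamini-Hochberg adjustment at 0.05. Control levels were fitted per channel after Aquantile (intraspot correlation 0.786). The ratio pairs the UV and control samples of a slide, which deviated together from their group means (r = 0.658 to 0.922). The fits were also run on simulated data with known changes. The simulated control levels had the same spread for every feature, unlike the real slides, so that run does not bear on the control calls. The number of slides limits precision.

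Features were named by the platform's table and RefSeq synonyms (Zm-B73-REFERENCE-NAM-5.0). Of 1334 listed probes, 1331 had 1 symbol and 3 several, and 1283 were found in RefSeq. The gene ID of tua4 was not found there. No coordinates or sequences were used here. All members are named. The 3 named features closest to the brightest tubulin and the brightest profilin spot were taken by Pearson r over at least 15 slides, and from each name list those that passed or had the smallest p. The members, lists and rules were chosen with earlier results of these data known. Alternatives covered background, normalization, dye term, weights, filters, pairing, the matrix and each slide left out.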

Additional observations from a re-analysis of the deposited data

Results flagged for a closer look

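In 121 groups of 4 slides, the log2(UV/control) of 2 had a slide set apart from the other 3 by Dixon's test at the 95% level, which chance alone does in about 1 of 20 groups. tub4 BQ528313 read -0.14 on slide b of 8 h, where the others lay between -0.28 and -0.25. prf5 AW330804 read 0.22 on slide a of 4 h, where the others lay between -0.06 and -0.05.

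In 92 groups of control levels, 8 had such a slide. At 1 h, slide b read 14.92 for tua1 AI691996 (others 17.90 to 17.98) and 14.39 for tub3 AI738190 (others 18.64 to 19.05). tua5 AI820330 read 19.41 on slide d of 1 h (others 20.20 to 20.36), 19.79 on slide c of 4 h (others 20.00 to 20.01) and 18.57 on slide a of 12 h (others 20.20 to 20.42). tua5 BQ034807 read 16.70 on slide a of 12 h (others 17.63 to 17.79). prf1 BQ485600 read 16.90 on slide a of 8 h (others 16.51 to 16.56), and the dim prf3 AW506872 read 13.60 on slide a of 4 h (others 16.67 to 16.84). No difference of the UV response between times passed for a member.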

How the results depend on the processing

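Counts below are members called. For the mean over times, 2 of 34 became 0 without the 8 h slides (chosen after seeing the data), beside 4.39% of all features. It became 4 of 30 without dim features (21.3% of all features) and 1 of 23 with features on all slides (15.8%). It became 8 of 34 with loess within print blocks (16.1%) and 8 of 34 with the authors' matrix values (17.9%). In both of these the member share was above that of all features. Without each slide in turn 2 to 4 were called (10.9% to 14.6% of all features). At 12 h, 1 became 2 without dim features (7.76% of all features), without background correction (6.30%), with slide weights (9.28%) and with the matrix (5.52%). It became 0 with median centring (2.13%) and with the slides of 12 h alone (0.525%), and 0 to 1 without a slide (0.770% to 4.65%). At 8 h, 0 became 2 without dim features (10.8% of all features) and with median centring (15.9%). It became 3 with print blocks (8.82%) and with slide weights (12.8%), 4 with the matrix (10.9%) and 0 to 1 without a slide (0.0351% to 9.58%). At 2 h, 0 became 1 with median centring (6.07% of all features) and with the matrix (8.48%), and 0 to 1 without a slide (1.05% to 4.71%). The difference between times gave 0 to 1 without a slide (0% to 1.33% of all features). Control level over time gave 4 of 23 members, and 2 of 23 without the dye term (13.2% of all features). Leaving out 1 slide gave 1 to 8 of 23 to 25 (3.84% to 27.7% of all features). Other settings also let in members missing on some slides. They gave 0 of 34 with control samples alone (1.28% of all features) and 9 of 34 with the matrix (14.7%). No member was called at 1 or 4 h under any setting, but among all features at most 3 were called at 1 h and 0 at 4 h. Without the replicate block, UV and control samples of a slide were unpaired. Then 0 members were called in the mean over times and 0 at 12 h (0% of all features in each). In the controls over time 3 of 23 were called (11.9% of all features). Among all features, calls ran from 0 to 3777 for the mean over times, 0 to 1671 at 2 h, 0 to 3183 at 8 h, 0 to 1857 at 12 h, 0 to 307 between times and 257 to 4824 for the controls.

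tua5 AW067355 passed in 28 of 30 settings (0.19 to 0.28), tub4 BQ528313 in 28 of 31 (-0.18 to -0.11) and prf2 AW453133 at 12 h in 23 of 30 (-0.70 to -0.30). Over time in the controls, prf5 AW330804 passed in 26 of 28 settings, tub7 BQ294325 in 19, tua4 AW324630 in 10 and tua6 AI622032 in 10. No called value changed sign. Where a count moved, the cause was not tested, except that fewer slides or features were fitted where slides or features were left out. Signal over background limits the 4 dim members.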
